A study of Homo sapiens with 30 samples.

Results

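Nascent transcription in hNABP1 KO cells was compared with that in WT cells by global run-on sequencing (GRO-seq). All libraries came from HT1080, a human fibrosarcoma line, at passages 10 to 15, with no other treatment. The comparison holds the 3 hNABP1 KO libraries and the 3 WT libraries made with NTP, chosen by their labels: 6 of the 30 samples of the series and 6 of its 18 run-on libraries. The kind of knockout, and whether the KO cells are 1 clone, are stated in none of the labels. Libraries of both genotypes made without NTP (3 each) gave the background of the assay. Another 3 libraries with NTP, from cells lacking the paralogue hNABP2, entered the model fits, where they share the estimate of the spread. They also served to choose genes for the rank correlations and for a view of repeat 3. Apart from the mitochondrial peaks of their repeat 3, no result is given for them. Each library carries a repeat number from 1 to 3. The labels speak of 2 independent experiments for these libraries, so how far the repeats are independent is not known, and p-values measure the spread between libraries.

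hNABP1 (also hSSB2, encoded by NABP1) is a single-stranded DNA binding protein. Like its paralogue hNABP2 (hSSB1), it joins INTS3 and INIP in the SOSS complex, which acts at DNA double-strand breaks; INTS3 and INTS6 also belong to Integrator, a complex that cleaves nascent RNA and attenuates RNA polymerase II near promoters. In a run-on assay nuclei extend already engaged transcripts with a bromouridine nucleotide, and an antibody against the label collects the new RNA, so counts report polymerases caught in the act of transcription rather than stable RNA.

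The libraries were shallow and the repeats unequal. Total counts over genes were 11091, 7553 and 115528 in hNABP1 KO repeats 1, 2 and 3, against 11981, 5883 and 164357 in WT. Without NTP the totals were 6695, 6374 and 23865 in hNABP1 KO and 9220, 5272 and 19247 in WT, so in repeats 1 and 2 the background libraries were close in depth to those with NTP. Rank correlations of counts were taken over 238 genes with 30 or more counts summed over the hNABP2 KO libraries with NTP. They were 0.75, 0.78 and 0.62 between KO and WT libraries of the same repeat. Between hNABP1 KO repeats 1 and 2 the value was 0.26, and between hNABP1 KO repeats 1 and 3 it was -0.11.

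The hNABP1 KO library of repeat 3 stood apart from all the others. It had 170 genes with 50 or more counts, against 25 in the deeper WT library of repeat 3. It also had 9965 deposited peaks, against 264 in WT repeat 3. Of its counts 7.16% fell on ribosomal RNA genes, against 0.679% in WT repeat 3. That share differed from WT in repeat 3 but lay within the range of repeats 1 and 2. There it was 3.77% and 3.55% in hNABP1 KO, against 7.75% and 10.3% in WT. Because of the counts and peaks of that library, values are given by repeat, and repeat 3 is described apart. What sets that library apart was not tested.

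The targeted gene was not lower in the libraries labelled hNABP1 KO. NABP1 had 0, 1 and 18 counts in hNABP1 KO repeats 1, 2 and 3, against 1, 0 and 19 in WT. That is 96.1 ± 84.0 CPM (counts scaled to a common library total) in hNABP1 KO and 66.4 ± 59.7 CPM in WT (SD, n = 3 each; exact permutation test, two-sided, p = 0.6; the smallest p that 3 libraries against 3 allow is 0.1). The groups overlapped. Whether the counted reads fall on a part of the gene that the knockout alters is not known, so these counts do not check the genotype.

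The other SOSS genes were also close to the limit of detection. NABP2, which encodes the paralogue, had 0, 0 and 6 counts in hNABP1 KO, against 4, 0 and 8 in WT (exact permutation p = 0.7). INTS3, the scaffold of SOSS, had 1, 1 and 6 counts in hNABP1 KO, against 0, 0 and 6 in WT (exact permutation p = 0.1). INTS6 had 2, 1 and 17 counts in hNABP1 KO, against 2, 1 and 20 in WT. INIP, the small SOSS subunit, had 0 counts in all hNABP1 KO libraries, against 0, 0 and 4 in WT. INTS3 was the 1 gene of these whose CPM did not overlap between the groups, and it rested on 1 count in each of hNABP1 KO repeats 1 and 2.

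Markers of the cell line were detected, though not in every library. The mesenchymal marker VIM had 6, 6 and 47 counts in hNABP1 KO, against 9, 0 and 36 in WT, and the matrix gene THBS1 had 24, 0 and 8, against 18, 4 and 8. CD44, PLAU, MMP2, MMP14, COL4A1 and COL4A2, also markers of the line, had 0 counts in WT repeat 2. The neural marker NEFL had 0, 1 and 7 counts in hNABP1 KO, against 0, 0 and 10 in WT. That is close to PLAU, with 1, 0 and 6, against 3, 0 and 9. The 16 neural genes together had 5, 3 and 63 counts in hNABP1 KO, against 7, 0 and 118 in WT. The epithelial marker EPCAM had 0 counts in each hNABP1 KO library, against 0, 0 and 1 in WT. The leukocyte marker PTPRC had 0 counts in each hNABP1 KO library, against 0, 0 and 5 in WT, but the 21 leukocyte genes together had 5, 4 and 42 counts in hNABP1 KO, against 5, 3 and 103 in WT. The keratin gene KRT8 was detected throughout, with 23, 2 and 8 counts in hNABP1 KO, against 29, 3 and 11 in WT, and the 18 epithelial genes together had 32, 7 and 30 counts in hNABP1 KO, against 40, 7 and 60 in WT.

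**Figure D1:**
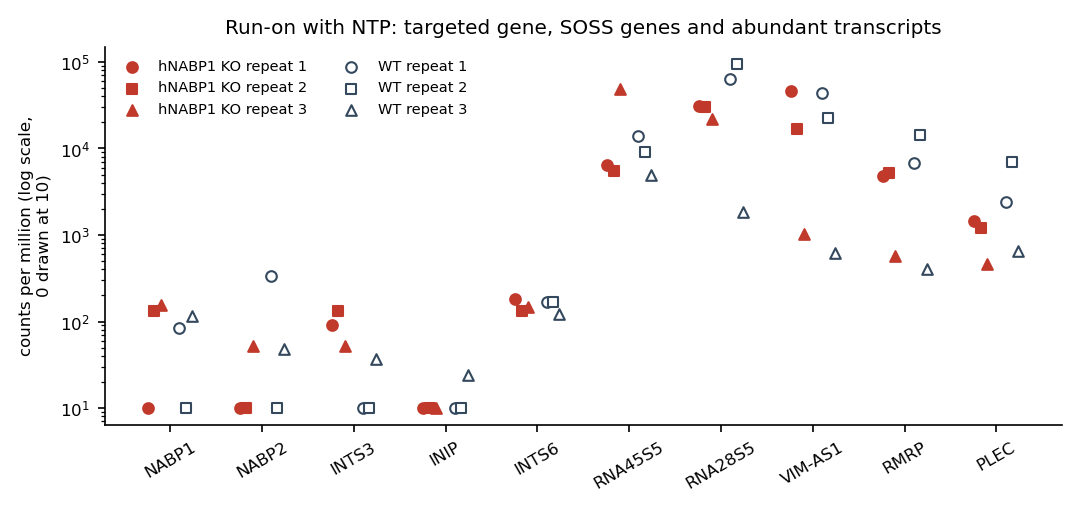
CPM (log scale, 0 drawn at 10) of the targeted gene, the SOSS genes and 5 abundant transcripts in each library with NTP. Filled red symbols are hNABP1 KO and open symbols WT, with a circle, square and triangle for repeats 1, 2 and 3. NABP1 lay in the same range in both groups, and RNA45S5 and RNA28S5 were lower in hNABP1 KO in repeats 1 and 2 and higher in repeat 3.

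Across all genes, no difference between hNABP1 KO and WT passed the test. In edgeR's quasi-likelihood test with Benjamini-Hochberg adjustment, 0 of 129 genes with enough counts were called (percent called 0), and 1 gene had an unadjusted p under 0.05. DESeq2 and limma voom also called 0, with 2 genes each at an unadjusted p under 0.05. The smallest p values, none of which passed, went to LOC100130093, TYMSOS, LONP1, RNA45S5 and LOC100129046 on the higher side and to DLG4, FADS2, MALAT1, PLEC and WDR24 on the lower side.

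Of these 10 genes, LOC100130093, an uncharacterised locus, had the smallest p. It had 1352, 2913 and 113 CPM in hNABP1 KO, against 584, 340 and 91.3 CPM in WT, and was higher in hNABP1 KO in 3 of 3 repeats (log2 fold change 1.36, SE 0.61, edgeR adjusted p = 1.00). In the libraries without NTP the same locus had 1, 12 and 37 counts in hNABP1 KO, against 6, 6 and 2 in WT. LONP1, the main protease of the mitochondrial matrix, had 270, 1986 and 1731 CPM in hNABP1 KO, against 250, 1190 and 243 CPM in WT. It was higher in hNABP1 KO in 3 of 3 repeats (log2 fold change 2.39, SE 1.28, edgeR adjusted p = 1.00), but the groups overlapped. Without hNABP1 KO repeat 3 the log2 fold change of LONP1 was -0.30 in this fit, which kept WT repeat 3; it was 0.50 without repeat 3 of any genotype and 0.56 in the fit with the repeat as a block without hNABP1 KO repeat 3.

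On the lower side PLEC, which encodes the cytoskeletal linker plectin, had 1443, 1192 and 459 CPM in hNABP1 KO, against 2420, 6969 and 651 CPM in WT. It was lower in hNABP1 KO in 3 of 3 repeats (log2 fold change -1.02, SE 0.76, edgeR adjusted p = 1.00). MALAT1, an abundant nuclear non-coding RNA, had 631, 265 and 43.3 CPM in hNABP1 KO, against 918, 1020 and 183 CPM in WT, again lower in 3 of 3 repeats. DLG4 and FADS2, a fatty acid desaturase gene, were lower in 3 of 3 repeats as well. In each of these 4 genes the libraries of the groups overlapped, and repeat 3 had lower CPM than repeats 1 and 2 in both genotypes.

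Because the repeat number paired the libraries, the model was also fitted with the repeat as a block. Over the same 129 genes the block left 0 called, with a smallest edgeR adjusted p of 0.41. It had 10 genes at an unadjusted p under 0.05, against 1 without the block. Over the 13447 genes with 10 or more counts summed over the libraries it called 16 (percent called 0.119), all higher in hNABP1 KO, where the unblocked fit over those genes called 0. Without hNABP1 KO repeat 3 the blocked fit called 0 of 12222 genes, with 60 at an unadjusted p under 0.05. In the 6 hNABP1 KO and WT libraries alone it called 3 of 10723 genes (0.028%).

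The 16 genes took 11, 4 and 2190 counts in hNABP1 KO repeats 1, 2 and 3, against 4, 0 and 176 in WT. Without NTP they had 4, 6 and 17 counts in hNABP1 KO and 13, 3 and 19 in WT. In hNABP1 KO repeat 3 each gene had 41 to 278 counts, against 1 to 21 in WT repeat 3. In repeats 1 and 2 no gene of the 16 had more than 2 counts in any library of either genotype, so the calls describe 1 library pair.

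The most significant of the 16 was LOC100505841, an uncharacterised locus, with 0, 0 and 222 counts in hNABP1 KO, against 0, 0 and 1 in WT (log2 fold change 8.12, SE 1.29, edgeR adjusted p = 3.72e-06). The repeat 3 ratio of CPM was 316, with an exact 95% counting interval of 56.1 to 12530.1; such intervals cover counting error only. UBE2S, a ubiquitin-conjugating enzyme that works with the anaphase-promoting complex, had 1, 0 and 202 counts in hNABP1 KO, against 0, 0 and 10 in WT (log2 fold change 5.03, SE 0.99, edgeR adjusted p = 0.0024). MAP2K7, the kinase that activates JNK, had 1, 0 and 278 counts in hNABP1 KO, against 0, 0 and 17 in WT (log2 fold change 4.76, SE 0.95, edgeR adjusted p = 0.0028). In all 3 genes hNABP1 KO repeat 3 was the only library with more than 17 counts among the 6.

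P4HB encodes protein disulfide isomerase, which folds secreted proteins in the endoplasmic reticulum. It had 0, 0 and 238 counts in hNABP1 KO, against 1, 0 and 16 in WT (edgeR adjusted p = 0.023), and its log2 fold change of 4.11 became -3.78 without hNABP1 KO repeat 3. SFR1, a recombination accessory factor, had 0, 0 and 59 counts in hNABP1 KO, against 0, 0 and 4 in WT. UBE2V2, a ubiquitin-conjugating enzyme variant, had 2, 1 and 111 counts in hNABP1 KO, against 0, 0 and 12 in WT. SARAF, a regulator of store-operated calcium entry, had 2, 1 and 127 counts in hNABP1 KO, against 0, 0 and 17 in WT. UBE2V2 and SARAF had counts in all 3 hNABP1 KO libraries and in 1 of 3 WT libraries.

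The others named by rank were NCOA5 (a nuclear receptor coactivator), ELP6 (an Elongator subunit) and LYPD6. NCOA5 had 1, 0 and 169 counts in hNABP1 KO, against 0, 0 and 20 in WT, ELP6 had 0, 0 and 41, against 0, 0 and 3, and LYPD6 had 2, 0 and 76, against 0, 0 and 9. JUND, an AP-1 transcription factor and the 1 gene of the 16 on the list of immediate early genes, had 0, 2 and 143 counts in hNABP1 KO, against 0, 0 and 21 in WT (log2 fold change 3.59, SE 0.89, edgeR adjusted p = 0.046). SMARCB1, a core subunit of the SWI/SNF remodelling complex, had 0, 0 and 108 counts in hNABP1 KO, against 1, 0 and 8 in WT. NCOA5, LYPD6 and JUND had counts in 2 hNABP1 KO libraries and in 1 WT library, and ELP6 in 1 of each.

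**Figure D2:**
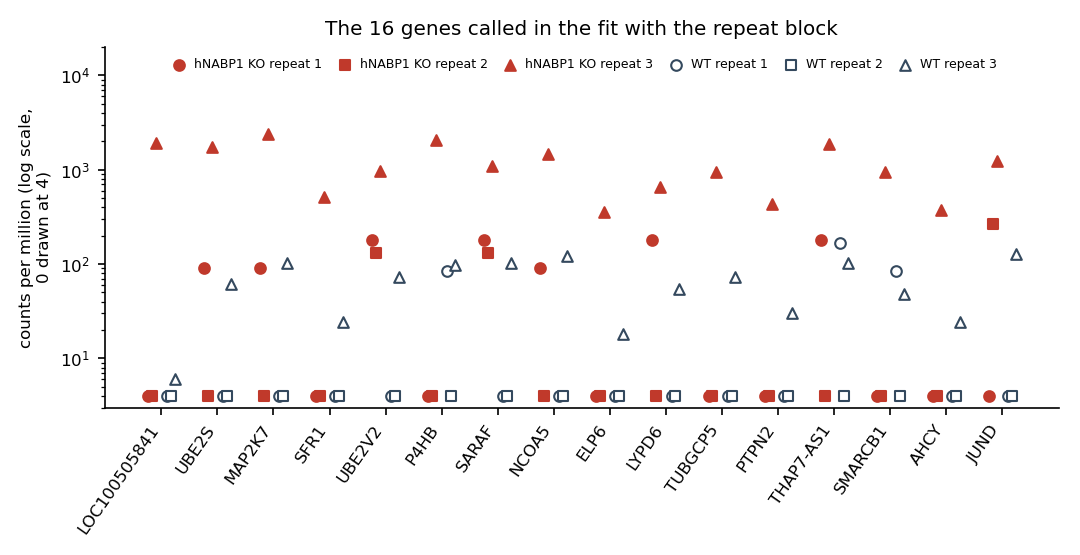
CPM (log scale, 0 drawn at 4) of the 16 genes called in the fit with the repeat block, in each library with NTP. Filled red symbols are hNABP1 KO and open symbols WT, with a circle, square and triangle for repeats 1, 2 and 3. In each of the 16 genes hNABP1 KO repeat 3 is the highest point, and most points of repeats 1 and 2 lie at 0.

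Taken alone, repeats 1 and 2 gave 0 called genes of 128 in the unblocked fit (edgeR, percent called 0), with 0 at an unadjusted p under 0.05. With the repeat as a block, 2 of 1271 genes were called (percent called 0.157), 1 in each direction. SEMA3B, which encodes a secreted semaphorin, was higher, with 3 and 17 counts in hNABP1 KO, against 0 and 0 in WT (edgeR adjusted p = 0.043). RNA28S5, a 28S ribosomal RNA gene, was lower, with 346 and 225 counts in hNABP1 KO, against 761 and 554 in WT (log2 fold change -1.43, SE 0.34, edgeR adjusted p = 0.031). Repeat 3 went the other way for both: SEMA3B had 4 counts in hNABP1 KO and 20 in WT, and RNA28S5 had 2528 in hNABP1 KO and 300 in WT.

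In the libraries without NTP, RNA28S5 had fewer counts in hNABP1 KO in 3 of 3 repeats. There it had 542, 470 and 29 counts in hNABP1 KO, against 1034, 594 and 119 in WT. With NTP, RNA28S5 had 346, 225 and 2528 counts in hNABP1 KO, against 761, 554 and 300 in WT. Outside repeat 3 the background libraries thus held more RNA28S5 counts than those with NTP, in both genotypes. The called difference in RNA28S5 therefore cannot be read as nascent transcription alone. RNA45S5, the ribosomal RNA precursor, had 72, 42 and 5647 counts with NTP in hNABP1 KO, against 166, 53 and 807 in WT. The ribosomal RNA genes together took 3.77%, 3.55% and 7.16% of the counts in hNABP1 KO, against 7.75%, 10.3% and 0.679% in WT. Ribosomal RNA copies are near identical, so their counts depend on how the authors placed reads that fit several copies.

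Among the 206 genes with 20 or more counts over the 4 libraries of repeats 1 and 2, 70 were higher in hNABP1 KO in both repeats (34% of the genes) and 29 were lower in both (14.1%), while 107 went opposite ways. In repeat 3 as well, 27 genes were on the higher side (13.1%) and 17 on the lower side (8.25%). Over repeats 1 and 2 alone, 2 libraries against 2, the groups did not overlap for 20 higher genes (9.71%) and 15 lower genes (7.28%). Over all 3 repeats the groups overlapped for each of the 129 genes of the unblocked fit (0 higher and 0 lower). The highest ratios after SEMA3B were those of FLG, the filaggrin gene, with 2 and 37 counts in hNABP1 KO, against 0 and 6 in WT, and PITRM1-AS1, with 13 and 4, against 3 and 0. The lowest were PLEC, with 16 and 9 counts in hNABP1 KO, against 29 and 41 in WT, and RNA28S5. RMRP, the RNA of the RNase MRP particle, had 53 and 39 counts in hNABP1 KO, against 81 and 84 in WT.

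Among the most abundant transcripts, VIM-AS1 and COL5A1 ranged more widely between repeats than between genotypes. VIM-AS1 took 45803, 16815 and 1030 CPM in hNABP1 KO, against 43569, 22268 and 615 CPM in WT. In hNABP1 KO it had 602, 100 and 816 counts without NTP, against 508, 127 and 119 with NTP. In WT it had 627, 115 and 104 counts without NTP, against 522, 131 and 101 with NTP. The background libraries thus held VIM-AS1 counts close to or above those with NTP, so these counts cannot be read as nascent transcription alone. COL5A1, a fibrillar collagen gene, took 4779, 31378 and 866 CPM in hNABP1 KO, against 3088, 24307 and 797 CPM in WT, and was higher in hNABP1 KO in 3 of 3 repeats without passing the test (edgeR adjusted p = 1.00). Antisense names made up a large share of repeats 1 and 2: over 865 pairs of a gene and its antisense partner, the antisense member took 73.5%, 62.5% and 38.6% of the pair's counts in hNABP1 KO, against 70.2%, 67.0% and 35.5% in WT. Without NTP this share was 84.7%, 60.4% and 68.3% in hNABP1 KO, against 79.4%, 65.5% and 49.8% in WT. No source used here states the strand setting of the counting, so VIM-AS1 and VIM reads cannot be told apart with certainty.

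In repeat 3 there is 1 library per genotype, so values there have counting intervals and no test. Of 494 genes with 50 or more counts over both libraries, 294 were at least 2-fold higher in hNABP1 KO (59.5%) and 14 at least 2-fold lower (2.83%). Of the 4316 genes with 20 or more counts, 850 were at least 2-fold higher (19.7%) and 768 at least 2-fold lower (17.8%), with a median log2 ratio of -0.05. A filter on summed counts favours genes concentrated in either library. Among 1208 genes chosen on another library, with 15 or more counts in hNABP2 KO repeat 3, 12.5% were at least 2-fold higher in hNABP1 KO, 20.4% at least 2-fold lower, and the median log2 ratio was -0.29.

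**Figure D3:**
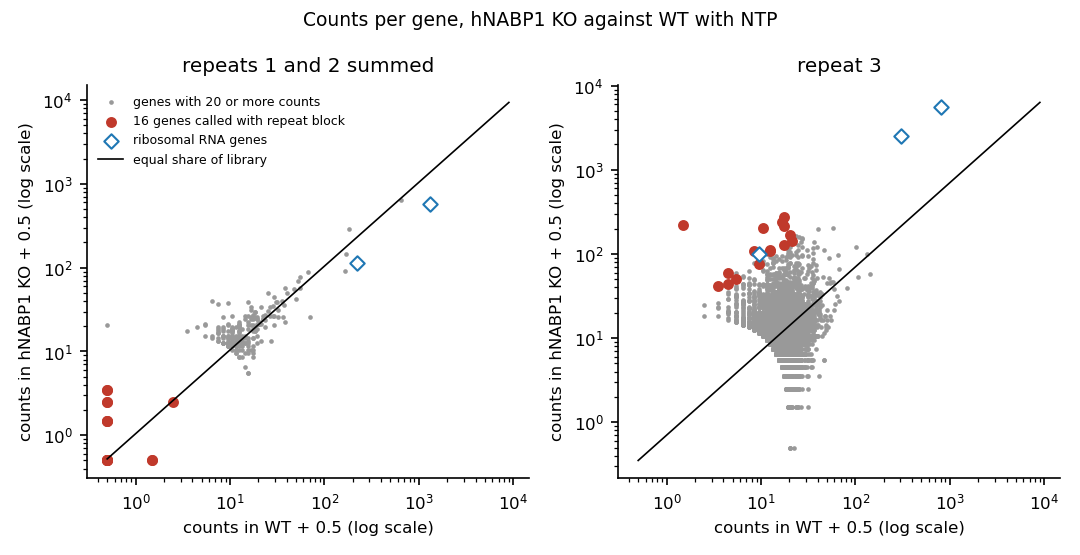
Counts per gene in hNABP1 KO (vertical axis) against WT (horizontal axis), with 0.5 added and both axes on a log scale, for repeats 1 and 2 summed (left) and repeat 3 (right). Grey points are genes with 20 or more counts, red points the 16 genes called with the repeat block, diamonds the ribosomal RNA genes, and the line marks an equal share of each library. In repeat 3 the 16 genes and the ribosomal RNA genes lie above the line, and in repeats 1 and 2 the ribosomal RNA genes lie below it.

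The highest repeat 3 ratios after the genes above included NELFA, THAP7-AS1 and NPM1. NELFA, a subunit of the negative elongation factor that holds paused polymerase, had 104 counts in hNABP1 KO and 10 in WT, a ratio of 14.8 (95% interval 7.73 to 31.8). Of its partners, NELFB had 6 counts in hNABP1 KO and 20 in WT, and NELFCD had 18 and 11. NPM1, the nucleolar protein nucleophosmin, had 59 counts in hNABP1 KO and 5 in WT. At the low end MUC6, a mucin gene, and SYT5, a synaptotagmin gene, each had 5 counts in hNABP1 KO and 46 in WT, a ratio of 0.155 (95% interval 0.0480 to 0.388). ENO1, the glycolytic enolase, had 10 counts in hNABP1 KO and 40 in WT.

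Gene lists were read by the share of each library's counts, against a background of 27 lists, of which 7 had a higher share in hNABP1 KO in 3 of 3 repeats and 2 a lower share in 3 of 3. None of the lists held a gene called in the unblocked fit, and JUND was the 1 member called with the block. Integrator subunits took 0.045%, 0.053% and 0.131% of the counts in hNABP1 KO, against 0.0083%, 0.051% and 0.086% in WT, on 5, 4 and 151 counts against 1, 3 and 141. Hypoxia and glycolysis genes took 0.514%, 0.199% and 0.356% in hNABP1 KO, against 0.259%, 0.034% and 0.286% in WT. These shares rest on 57, 15 and 411 counts against 31, 2 and 470. Mitochondrial proteases and chaperones took 0.252%, 0.490% and 0.387% in hNABP1 KO, against 0.150%, 0.357% and 0.171% in WT. For each of these 3 lists hNABP1 KO was above WT within every repeat, while the ranges of the groups overlapped. With the ribosomal RNA counts left out of the totals, the Integrator list was above WT in 2 of 3 repeats. Without NTP its share was 0.060%, 0.078% and 0.046% in hNABP1 KO, against 0.054%, 0.019% and 0.078% in WT. In hNABP1 KO repeats 1 and 2 the Integrator share was thus no higher with NTP than without. Hypoxia and glycolysis genes took 0.403%, 0.110% and 0.092% in hNABP1 KO without NTP, against 0.575%, 0.114% and 0.213% in WT.

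The mitochondrial list leaned on LONP1, with 3, 15 and 200 counts in hNABP1 KO, against 3, 7 and 40 in WT, and on HSPD1, the matrix chaperonin, with 5, 0 and 97, against 0, 0 and 27. Without NTP the list's share was 0.269%, 0.314% and 0.369% in hNABP1 KO, against 0.282%, 0.398% and 0.192% in WT. In the hypoxia and glycolysis list, PFKFB3, whose product makes an activator of glycolysis, had 2, 0 and 68 counts in hNABP1 KO, against 0, 0 and 32 in WT, and SLC2A1, the glucose transporter GLUT1, had 1, 0 and 69, against 3, 0 and 19. The p53 targets had a lower share with NTP, with 0.117%, 0.093% and 0.161% in hNABP1 KO, against 0.150%, 0.119% and 0.184% in WT. These rest on 13, 7 and 186 counts against 18, 7 and 303.

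In repeat 3 alone the lists stand beside a background of 19.7% of genes higher and 17.8% lower by 2-fold, on library totals. That near balance depends on the scale: with TMM normalization of the library pair, 27.9% were higher and 9.87% lower. Members needed 20 or more counts summed over the same libraries whose ratio is read. A gene can thus pass through the library where it is high, as E2F1, PCNA and NBN did. Of 47 genes of S phase and replication, 20 passed this filter. Of these, 10 were at least 2-fold higher in hNABP1 KO and 0 lower, with a median log2 ratio of 0.97. They included SLBP, which binds histone mRNA, with 121 counts in hNABP1 KO and 39 in WT, the helicase subunit gene MCM2 with 64 and 22, PCNA with 42 and 9, and E2F1 with 23 and 4. In repeats 1 and 2 the same list took 0.289% and 0.146% of the counts in hNABP1 KO, against 0.25% and 0.17% in WT. Of 44 double-strand break response genes, 15 passed the filter, with 7 higher by 2-fold and 1 lower. NBN, a subunit of the MRN complex that binds broken ends, had 77 counts in hNABP1 KO and 8 in WT, and MDC1, an adaptor at broken ends, had 39 and 15, whereas the checkpoint kinase gene ATR had 9 and 30.

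Other lists leaned the opposite way in repeat 3. The same filter left 21 of 45 extracellular matrix genes and 17 of 32 genes of mTORC1 and the GATOR complexes. It left 14 of 76 cytosolic ribosomal protein genes. Of 21 extracellular matrix genes 0 were 2-fold higher in hNABP1 KO and 6 lower, with a median log2 ratio of -0.63. COL7A1 had 16 counts in hNABP1 KO and 50 in WT. Of 17 genes of mTORC1 and the GATOR complexes 1 was higher and 6 lower, with WDR24, a GATOR2 subunit, at 4 counts in hNABP1 KO and 34 in WT, and SEH1L, shared by GATOR2 and the nuclear pore, at 57 and 11. Cytosolic ribosomal protein genes had 1 of 14 higher and 4 lower, with a median log2 ratio of -0.74. These are counts of genes in a pair of libraries, with no replicate behind them.

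**Figure D4:**
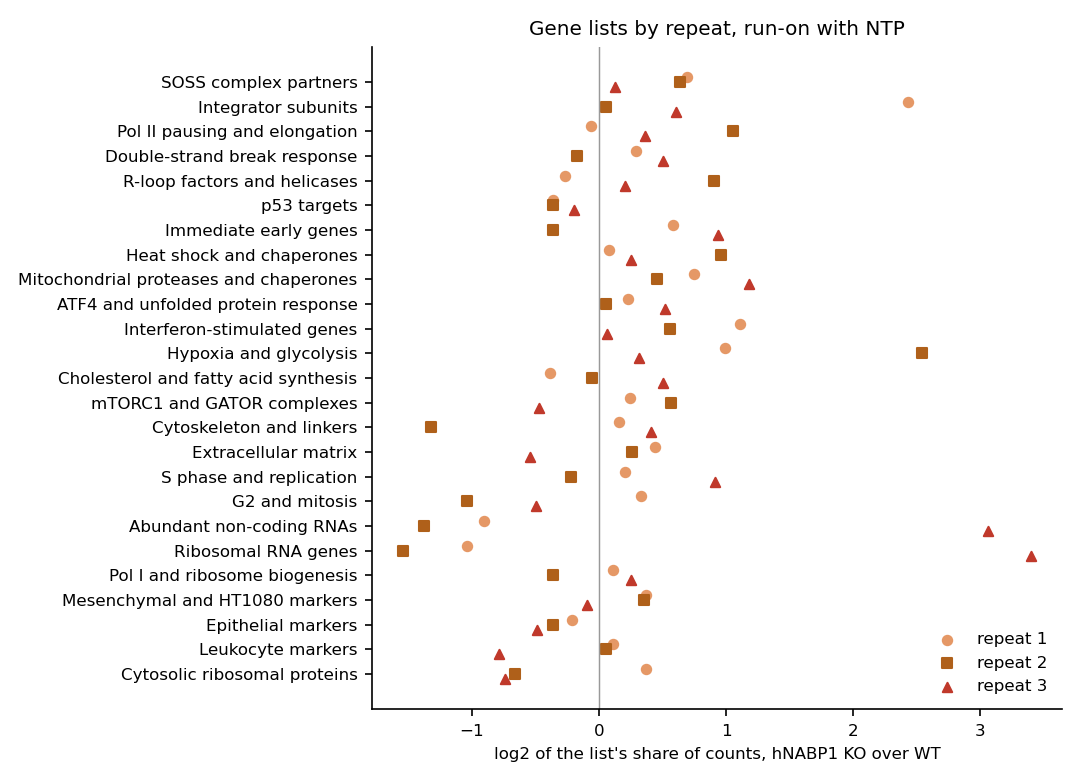
Log2 of each list's share of counts in hNABP1 KO over that in WT, by repeat (circles repeat 1, squares repeat 2, triangles repeat 3), for the 25 lists with counts in all 6 libraries. Points right of the line were higher in hNABP1 KO. Ribosomal RNA genes lie left of the line in repeats 1 and 2 and far right in repeat 3, while hypoxia and glycolysis and mitochondrial proteases lie right of it in all 3.

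Peak lists, called per library by the authors, were longer in hNABP1 KO in each repeat. They held 518, 431 and 9965 peaks in hNABP1 KO, against 94, 195 and 264 in WT, so that hNABP1 KO had 5.51, 2.21 and 37.7 times as many in repeats 1, 2 and 3. The groups did not overlap (exact permutation test, two-sided, p = 0.1, the smallest that 3 libraries against 3 allow). Among peaks with a −log10 q of 5 or more the numbers were 74, 56 and 4353 in hNABP1 KO, against 56, 32 and 99 in WT. There the groups overlapped and the exact permutation p was 0.6. The extra peaks of hNABP1 KO repeats 1 and 2 were thus mostly weak ones, with a median −log10 q of 1.47 and 1.60 in hNABP1 KO, against 6.46 and 2.29 in WT.

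Few peaks recurred between repeats of a genotype. Of the 518 peaks of hNABP1 KO repeat 1, 13 overlapped a peak of hNABP1 KO repeat 2 by 1 base or more (2.51%, exact 95% interval 1.34 to 4.25), and 90 a peak of hNABP1 KO repeat 3 (17.4%). Of the 94 peaks of WT repeat 1, 6 overlapped WT repeat 2 (6.38%). Of the 264 peaks of WT repeat 3, 204 lay on peaks of hNABP1 KO repeat 3 (77.3%, exact 95% interval 71.7 to 82.2), which made up 2.05% of the hNABP1 KO list. That list was far longer than the others, and a longer list can overlap more peaks. Of the 94 peaks of WT repeat 1, 17 lay on hNABP1 KO repeat 1 (18.1%). Of the 195 peaks of WT repeat 2, 6 lay on hNABP1 KO repeat 2 (3.08%). Shares of peaks with a summit within 1 kb of a RefSeq gene start were 39.9%, 29.5% and 53% in hNABP1 KO, against 41.6%, 38.0% and 78.5% in WT.

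The repeats also differed in where the summits lay, in both genotypes alike. Among peaks within 1 kb of a start, the median summit was 156 and 150.5 bp downstream of the start in hNABP1 KO repeats 1 and 2, against 135 and 176 bp in WT. In repeat 3 it was -3 bp in hNABP1 KO, against -35 bp in WT, that is at or just before the start. Repeat 3 of hNABP1 KO also had 6 peaks on the mitochondrial genome that covered 8802 bp, against 2 peaks covering 403 bp in WT repeat 3. Such coverage was not particular to that library. The hNABP2 KO library of repeat 3 had 12 mitochondrial peaks covering 6768 bp, and anti-hNABP2 ChIP repeat 1 had 11 covering 9468 bp.

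**Figure D5:**
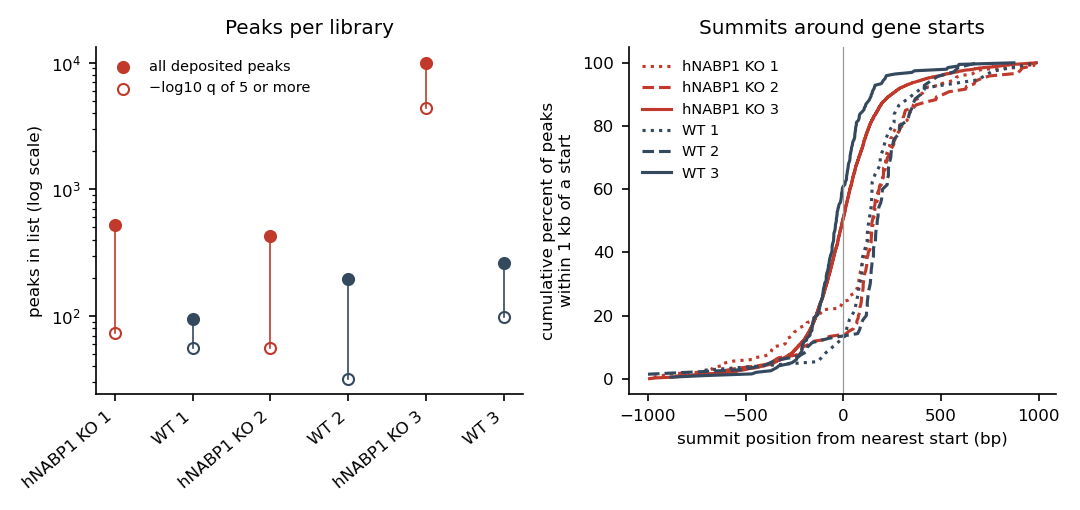
Left, deposited peaks per library (filled) and those with a −log10 q of 5 or more (open) on a log scale, with hNABP1 KO in red and WT in blue-grey. Right, cumulative percent of the peaks within 1 kb of a gene start against the distance of the summit from that start, in bp, with dotted, dashed and solid lines for repeats 1, 2 and 3. The hNABP1 KO lists are longer in every repeat, and the repeat 3 curves of both genotypes cross the start near their middle while those of repeats 1 and 2 lie to its right.

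The peaks of all 6 lists merged into 11029 loci, of which 10353 were in 1 hNABP1 KO list and no WT list. Only 130 were in 2 hNABP1 KO lists and no WT list, and 3 were in all 3 hNABP1 KO lists and no WT list. One of the 3 lay at chr10:6202725-6203674 (hg38), over a start of PFKFB3, with the authors' fold over local background at 4.92, 6.85 and 8.08. PFKFB3-AS1 also lies in this locus, so the peak cannot be assigned to PFKFB3 alone. In hNABP1 KO repeat 2 the peak stood without counts on PFKFB3. Another, at chr9:111484022-111484367, lay by a start of ECPAS, which encodes a proteasome adaptor, with folds of 3.93, 7.83 and 5.27. The other was at RN7SL2, a signal recognition particle RNA gene, with folds of 1.28, 1.96 and 2.96. At RN7SL1, another such gene, the 3 hNABP1 KO lists and WT repeat 1 had a peak, with a fold of 1.20 in WT. How reads that fit both genes were placed is not known, so the absence of RN7SL2 from the WT lists is uncertain.

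The promoters at the PFKFB3 locus and at 3 of the 16 called genes are printed below from RefSeq (GRCh38.p14), each from 250 bases before to 50 after a start, 5′ to 3′ in the direction of the gene, to show the base sequence around these starts. The summit of the hNABP1 KO repeat 3 peak lay 195, 195 and 150 bases before the start at UBE2S, P4HB and MAP2K7, inside the window, and 105 bases after it at PFKFB3, beyond the end of the window. Capitals mark exact matches, on either strand, to 7 motifs: TGACGTCA (CREB and ATF1), GCATGCGC (NRF1), ACTTCCGG (ETS family), AAGATGGC (YY1), TATAAA (TBP), CCAAT (NF-Y) and GGGCGG (Sp1).
UBE2S, chr19:55407739-55408038, minus strand: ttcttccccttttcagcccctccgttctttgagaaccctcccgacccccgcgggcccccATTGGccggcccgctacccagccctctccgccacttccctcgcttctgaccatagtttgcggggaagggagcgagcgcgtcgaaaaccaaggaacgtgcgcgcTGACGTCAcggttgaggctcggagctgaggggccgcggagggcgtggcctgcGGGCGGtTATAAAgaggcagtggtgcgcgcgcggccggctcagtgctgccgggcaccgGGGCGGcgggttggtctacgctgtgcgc
P4HB, chr17:81860486-81860785, minus strand: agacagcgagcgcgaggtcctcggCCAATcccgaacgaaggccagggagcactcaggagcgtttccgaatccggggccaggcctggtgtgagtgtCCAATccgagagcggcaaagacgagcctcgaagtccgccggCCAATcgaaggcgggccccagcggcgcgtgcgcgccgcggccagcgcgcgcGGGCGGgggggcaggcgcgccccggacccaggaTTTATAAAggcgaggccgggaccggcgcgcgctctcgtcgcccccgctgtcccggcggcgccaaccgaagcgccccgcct
MAP2K7, chr19:7903627-7903926, plus strand: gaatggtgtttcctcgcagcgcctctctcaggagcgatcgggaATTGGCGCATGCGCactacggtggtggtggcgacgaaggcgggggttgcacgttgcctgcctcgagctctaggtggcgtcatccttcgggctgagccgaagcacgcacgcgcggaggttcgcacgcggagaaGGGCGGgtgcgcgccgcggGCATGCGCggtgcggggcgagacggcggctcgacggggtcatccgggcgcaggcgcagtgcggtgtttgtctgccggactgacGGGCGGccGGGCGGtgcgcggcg
PFKFB3, chr10:6202682-6202981, plus strand: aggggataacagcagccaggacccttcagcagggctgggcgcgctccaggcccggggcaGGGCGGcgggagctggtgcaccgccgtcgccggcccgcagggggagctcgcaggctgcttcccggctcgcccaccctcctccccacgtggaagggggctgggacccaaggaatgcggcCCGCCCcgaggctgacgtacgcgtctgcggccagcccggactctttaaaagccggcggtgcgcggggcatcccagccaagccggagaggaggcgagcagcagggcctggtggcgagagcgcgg

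The UBE2S window holds a TGACGTCA and a TATAAA, and the hNABP1 KO repeat 3 peak over it (chr19:55407746-55408435) had the highest fold of that list, 128. The P4HB window holds CCAAT 3 times and TATAAA on both strands in 1 overlapping run, under a peak of fold 97.7. The MAP2K7 window holds GCATGCGC once alone and once on both strands in 1 overlapping run, which shares a base with a CCAAT on the other strand, under a peak of fold 97.2. The PFKFB3 window holds GGGCGG, once on each strand, and none of the longer motifs as spelled here. The WT lists held no peak at these 4 windows.

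Over all promoters with a hNABP1 KO repeat 3 peak the sequence was that of CpG-rich starts. Among 6283 such windows the median GC content was 70.0%, against 58.7% over all 34943 windows of the same length. GGGCGG was in 82.0% of them, against 44.9% of all, and TATAAA in 2.93%, against 11.6%. ACTTCCGG was in 7.07%, against 4.11%, TGACGTCA in 3.57%, against 1.84%, GCATGCGC in 6.83%, against 3.02%, AAGATGGC in 4.90%, against 2.89%, and CCAAT in 36.6%, against 34.6%. The 253 windows with a WT repeat 3 peak held ACTTCCGG in 11.1%, TGACGTCA in 6.32% and GCATGCGC in 4.74%. In the 188 windows with a peak of hNABP1 KO repeat 1 or 2, against the 58 of WT repeat 1 or 2, ACTTCCGG was in 6.38%, against 10.3%, and GCATGCGC in 2.66%, against 3.45%. The WT repeat 3 windows had a median GC content of 69.3% and GGGCGG in 82.6%, and the 8325 windows with an anti-hNABP2 ChIP peak 70.3% and 83.6%. A match describes the letters and not a bound site.

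The genes with such a start peak took a larger share of the counts in that library. The 4886 genes, 30.2% of the 16199 in the table with a RefSeq start, held 39.1%, 32.5% and 64.9% of the counts in hNABP1 KO repeats 1, 2 and 3, against 37.1%, 33.7% and 46.5% in WT. Without NTP they held 33.4%, 34.3% and 29.2% in hNABP1 KO, against 35.3%, 33.9% and 43.0% in WT. The peaks and the counts of hNABP1 KO repeat 3 come from the same reads, so its own 64.9% is a description. In repeats 1 and 2 the genotypes lay within 2 percentage points of each other.

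Run-on peaks were set against the deposited anti-hNABP2 ChIP peaks of WT cells, a map of where the paralogue sits. On peaks of ChIP repeat 1 lay 29.0%, 24.6% and 47.1% of the run-on peaks in hNABP1 KO, against 37.2%, 30.8% and 78.8% in WT. At a −log10 q of 5 or more the shares were 37.8%, 55.4% and 77.6% in hNABP1 KO, against 39.3%, 40.6% and 82.8% in WT. The order thus turned in repeat 2, where the exact 95% intervals overlapped (41.5 to 68.7 in hNABP1 KO and 23.7 to 59.4 in WT). On the 2832 peaks of ChIP repeat 2, a shorter list than the 10055 of ChIP repeat 1, lay 8.30%, 7.19% and 15.4% of the peaks in hNABP1 KO, against 8.51%, 8.72% and 19.7% in WT. There the order in repeat 3 turned at a −log10 q of 5 or more, with 26.3% in hNABP1 KO (exact 95% interval 25.0 to 27.7), against 21.2% in WT (13.6 to 30.6), and the intervals overlapped. Of the 4886 genes with a hNABP1 KO repeat 3 peak at a start, 3756 also had a ChIP repeat 1 peak at a start, which is 76.9% of the run-on set and 58.4% of the 6427 genes with a ChIP peak. Both sets favour GC-rich starts, and how far that accounts for the overlap was not tested.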

How the data were processed

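Run-on RNA was collected with an anti-BrdU antibody and sequenced after directional library preparation, per the labels' protocols. The table deposited by the authors holds unnormalized read counts for each gene symbol, and the deposited peak lists give for each peak a score, a fold (the ratio over local background), −log10 p and −log10 q. Per the submitters' processing notes, cutadapt 1.18, Bowtie2 2.3.5, SAMtools and MACS2 2.2.1 were used with hg38. Settings, strand of the counting and controls of the peak calling are stated in no source used here. Of the table's 26475 genes, 25285 matched RefSeq names; 28 names had become dates and were kept as listed.

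Counts were fitted over the 9 libraries with NTP of 3 genotypes with edgeR 4.0.16 (quasi-likelihood test, filterByExpr, TMM; R 4.3.3), and p-values were adjusted by Benjamini-Hochberg across the tested genes, with calls under 0.05. Other tools were limma 3.58.1 (voom) and DESeq2 1.42.0, and the scripts were tested on simulated data. CPM are per library total. Same-numbered hNABP1 KO and WT libraries deviated from their group means together (r = 0.78, 0.67 and 0.56 over 129 genes, against -0.57 to -0.05 for different numbers), so the repeat numbers pair the samples. Repeat 3 ratios carry exact 95% binomial intervals, which cover counting error only, and 0.5 was added to counts for ranking. Peaks were compared with bedtools 2.31.1 and scipy 1.17.1, with 1 base of overlap as shared.

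Genes named are the 5 smallest p in each direction of the fit without the block, up to 10 per direction called with the block and 10 or more counts, the 10 highest and lowest ratios in repeat 3 (50 or more counts) and in repeats 1 and 2 (20 or more counts), the 10 most abundant, and up to 4 members of each list with the most counts; examples are given in the text. ATR, E2F1, NELFB, NELFCD and PCNA were picked after their values were seen. The comparison, the gene lists and the rules were chosen with earlier results of these data known. Alternatives covered normalization, test, count filters, the block, ribosomal RNA, each library left out, a stricter q and a stricter overlap. DRIP libraries were not used here.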

Additional observations from a re-analysis of the deposited data

How the results depend on the processing

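The count of called genes was 0 under RLE factors, DESeq2, voom, no count filter, 10 or more counts, the replicate block alone, the 6 libraries alone and without ribosomal RNA, and 0 to 0 with each library left out. It was 16 with the replicate block and 10 or more counts, and 3 in the same fit of the 6 libraries alone; for repeats 1 and 2 it was 2 with the block. With each library left out the log2 change of LONP1 was -0.30 to 3.10 and that of RNA45S5 -1.73 to 3.39, lowest in both without hNABP1 KO repeat 3. RNA45S5 was at -1.01 without repeat 3 of any genotype. In the blocked fit without hNABP1 KO repeat 3, RNA45S5 was at -0.82 and P4HB at -3.78. The NABP1 difference was -3.47 (without WT repeat 2) to 77.7 CPM with each library left out, and -0.16 without hNABP1 KO repeat 3. The number of lists higher in hNABP1 KO in every repeat was 7 of 27, 6 without ribosomal RNA, and 10 to 12 with each repeat left out, when fewer repeats had to match.

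In repeat 3, the TMM scale of that library pair gave 348 genes higher and 7 lower by 2-fold at 50 or more counts. At 20 or more it gave 1206 higher (27.9%) and 426 lower (9.87%), with a median log2 ratio of 0.31. Without ribosomal RNA, 934 were higher and 629 lower at 20 or more counts, and the median was 0.044. On genes chosen on hNABP2 KO repeat 3, an alternative added after seeing the data, the median was -0.29, with 12.5% higher and 20.4% lower.

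Requiring 50% of both peaks to overlap gave 48.1% of WT repeat 3 peaks on hNABP1 KO repeat 3, and on ChIP peaks 10.2%, 8.58% and 29.5% in hNABP1 KO, against 16%, 10.3% and 45.8% in WT. A −log10 q of 5 or more gave 10.8% of hNABP1 KO and 1.79% of WT repeat 1 peaks in repeat 2, and 64.6% of WT repeat 3 on hNABP1 KO repeat 3. On ChIP repeat 1 peaks it gave 37.8%, 55.4% and 77.6% in hNABP1 KO, against 39.3%, 40.6% and 82.8% in WT, which turned the order in repeat 2. The cause of these shifts was not tested. Replicate block differences within repeats, also added later, equal the differences of group means by construction (NABP1 29.7 CPM); the exact sign-flip p was 0.75 for NABP1 and 0.25 for peaks, where 0.25 is the smallest that 3 pairs allow. With 5883 to 11981 counts, repeats 1 and 2 show only the most abundant genes.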
